A study of Homo sapiens with 24 samples.

Results

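The estrogen receptor (ER) coactivators and corepressors described here were 9 genes, taken by symbol from the count tables: NCOA1, NCOA2, NCOA3, NCOR1, EP300, CREBBP, MED1, NRIP1 and KMT2C. All 9 were among the 26364 genes of the tables and all 9 passed the filter on low counts in every comparison. They were measured by poly-A RNA-seq in T-47D, an established ER-positive luminal breast cancer cell line. The cells were WT clones and clones with a heterozygous ESR1 mutation of the ligand-binding domain, either Y537S or D538G, at the gene's own locus. Each genotype was represented by 2 clones, so a genotype difference rests on 2 isolates against 2, and every condition had 1 library per clone. All cells were kept in hormone-deprived medium, transfected at 10 nM and harvested after 24 h.

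WT and Y537S cells received a mimic negative control, a miR-301b-3p mimic or a miR-331-3p mimic, and WT cells also received a miR-181c-5p mimic. D538G cells received the mimic negative control, the miR-301b-3p mimic or the miR-181c-5p mimic. A mimic is a double-stranded oligonucleotide that stands in for a microRNA (miRNA) and so raises its activity. Y537S cells further received a let-7f-5p inhibitor, an oligonucleotide that blocks this miRNA, or the inhibitor negative control. The 24 libraries held 31379962 to 50526442 counts (median 39878595), and the members had between 1910 and 14218 counts in a library. All 8 luminal markers examined, among them ESR1, GATA3, KRT8 and EPCAM, were at 70.4 to 5054 CPM, counts scaled to a common library total. Of 6 markers of blood, endothelial and stromal cells, 4 stayed under 1 CPM in every library, COL3A1 reached at most 4.90 CPM, and COL1A1 was at 47.5 to 81.2 CPM. The summed level of these 6 was 51.1 to 71.0 CPM in WT, 52.4 to 81.3 CPM in Y537S and 48.9 to 83.0 CPM in D538G libraries.

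ER acts on transcription through coregulators. The active receptor recruits the p160 coactivators NCOA1, NCOA2 and NCOA3, which bring in the histone acetyltransferases EP300 and CREBBP, while MED1 links the receptor to the Mediator complex and RNA polymerase II, and KMT2C methylates histone H3 at enhancers. NCOR1 is the scaffold of a histone deacetylase corepressor complex, and NRIP1, itself an estrogen-induced gene in breast cancer cells, limits the activity of the ligand-bound receptor. Point mutations of the ligand-binding domain such as Y537S and D538G let ER work without hormone.

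The mature miRNAs that were raised or blocked are shown first, since the match of their seed (bases 2 to 8, in capitals) to a 3′UTR is how a miRNA usually finds an mRNA. The sequences are from RefSeq.
hsa-miR-301b-3p: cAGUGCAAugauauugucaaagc
hsa-miR-331-3p: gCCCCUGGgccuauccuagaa
hsa-miR-181c-5p: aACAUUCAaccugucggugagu
hsa-let-7f-5p: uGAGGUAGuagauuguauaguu
The letters complementary to each seed were searched on the transcript strand of the canonical 3′UTRs of the GENCODE annotation on hg19. TTGCACT, for miR-301b-3p, was held by 14.2% of the 18656 genes with a 3′UTR. CCAGGGG, for miR-331-3p, was held by 14.1%. TGAATGT, for miR-181c-5p, was held by 19.5%, and CTACCTC, for let-7f-5p, by 9.87%. The members' 3′UTRs were longer than usual, with a median of 3139 bases against 1094 bases over all genes. For miR-301b-3p 3 of the 9 members held a match, and 3 did for miR-181c-5p and 2 for let-7f-5p. For miR-331-3p the count was 0.

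KMT2C was the only member with matches to both miR-301b-3p and miR-181c-5p. Both are followed by an A, which makes an 8-base match. The 30 bases around each member's match are given 5′ to 3′ on the transcript strand with the 7 matching bases in capitals, because the responses of these genes are described later.
KMT2C and miR-301b-3p, chr7:151833330-151833359, minus strand: gctaagggataataacTTGCACTaaataca
KMT2C and miR-181c-5p, chr7:151833499-151833528, minus strand: ggcaggggccttcctaTGAATGTaagactg
NCOA1 and miR-301b-3p, chr2:24993301-24993330, plus strand: cttcaaggttttataaTTGCACTgtttgtt
NCOA1 and let-7f-5p, chr2:24992758-24992787, plus strand: tgacattctgcaccagCTACCTCtgcctcc
CREBBP and miR-301b-3p, chr16:3776034-3776063, minus strand: ccacttcgggggatacTTGCACTtagccac
NCOA3 and miR-181c-5p, chr20:46284028-46284057, plus strand: gacggaattgggtttcTGAATGTctgtgaa
NCOA3 and let-7f-5p, chr20:46284741-46284770, plus strand: tttgtactcctgctgtCTACCTCtcctcac
NCOA2 held an 8-base match to miR-181c-5p, and its sequence is not shown. Each match lies within 1 exon. A match is a description of the letters and says nothing of whether a miRNA acts there.

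All members were well expressed. Per kilobase of canonical transcript, NCOA3 was the most abundant in WT control cells, at 43.0 CPM per kb (mean of 2 clones). MED1 (27.9 CPM per kb) and EP300 (26.8 CPM per kb) followed, and then CREBBP (19.2 CPM per kb), NCOR1 (18.6 CPM per kb), NCOA2 (17.0 CPM per kb) and KMT2C (14.04 CPM per kb). NCOA1, with clones at 11.1 and 10.9 CPM per kb, and NRIP1, with clones at 11.8 and 9.82 CPM per kb, were lowest. The clones of CREBBP (18.6 and 19.7 CPM per kb) and NCOR1 (18.4 and 18.7 CPM per kb) overlapped in this order, and those of NCOA1 lay within those of NRIP1. The other neighbours did not overlap. This order rests on the length of the canonical transcript, while reads were counted per gene. For KMT2C all annotated exons together span 53322 bases against 16860 for that transcript. The order could thus differ with another choice of length. Over all 24 libraries KMT2C varied the most, with a 3.32-fold range from 71.6 to 237.5 CPM, and CREBBP the least, with a 1.39-fold range from 201.2 to 280.3 CPM.

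**Figure D1:**
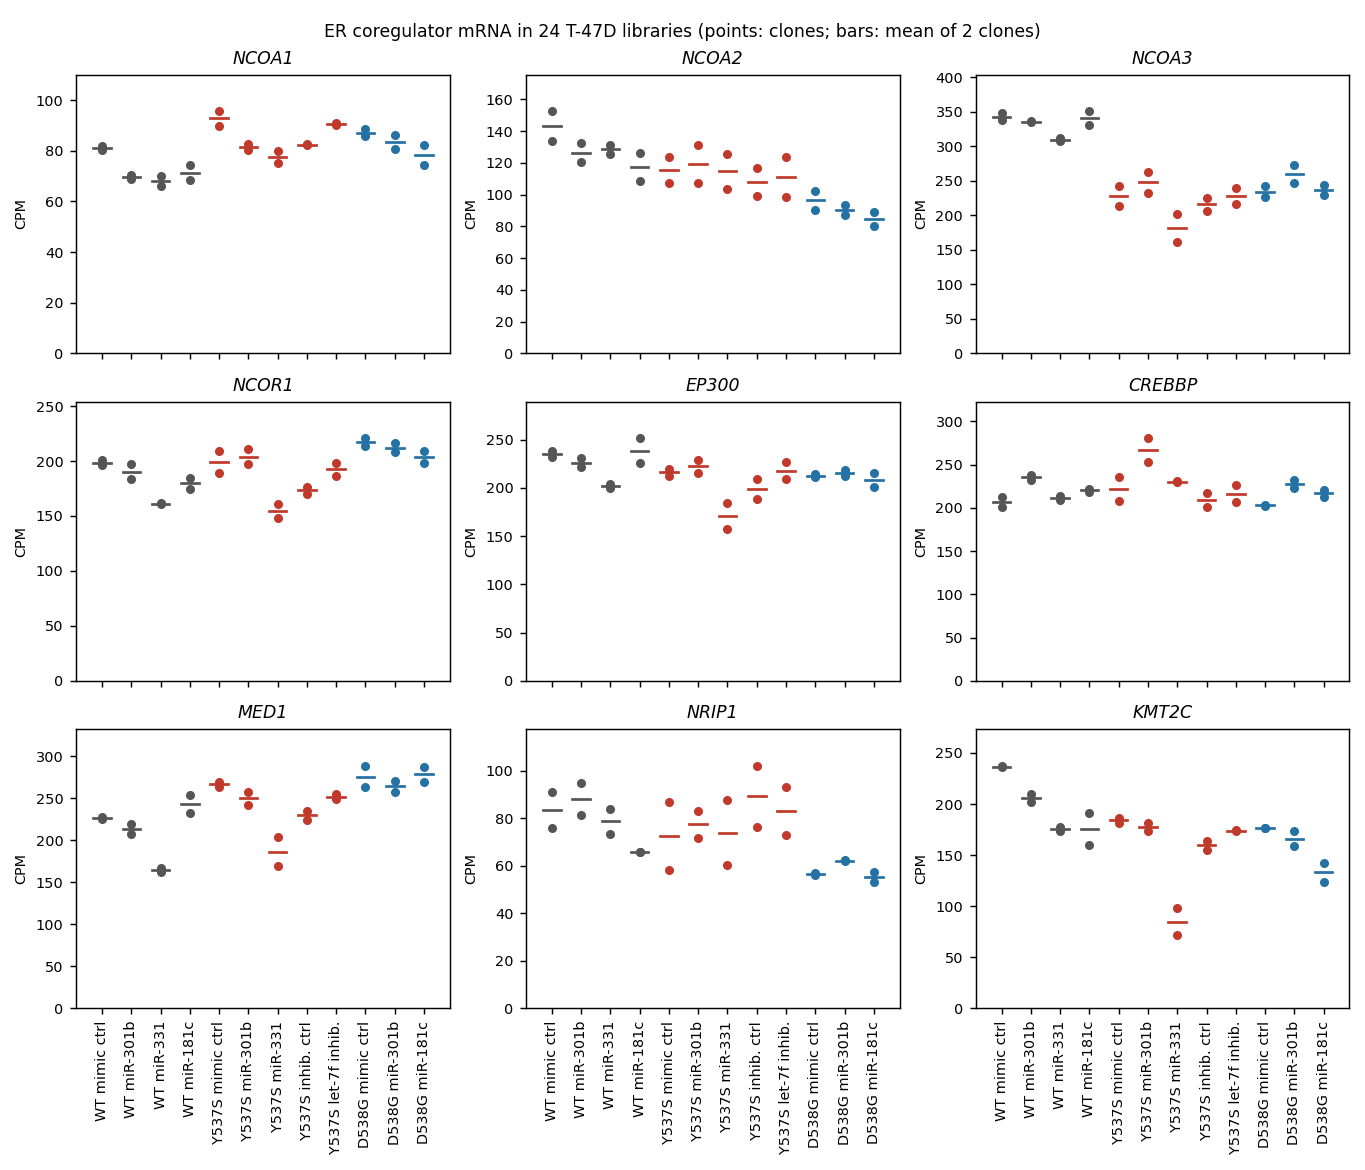
Levels of the 9 members in CPM (linear axes from 0), with 1 point per clone and a bar at the mean of 2 clones for each of the 12 conditions (grey, WT; red, Y537S; blue, D538G). KMT2C fell to 71.6 and 97.8 CPM in the miR-331 libraries of Y537S cells, and NCOA3 was at 307.0 CPM or more in WT libraries and at 273.5 CPM or less in mutant libraries.

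The first comparison asked how the mutant clones differed from WT clones when all had received the mimic control. The coactivator NCOA3 was at 347.6 and 337.5 CPM in the WT clones, 213.0 and 242.2 CPM in the Y537S clones and 242.5 and 226.1 CPM in the D538G clones. Both mutants were below both WT clones. The log2 fold change was −0.57 ± 0.09 (SE, n = 2 clones against 2) in Y537S (adjusted p = 0.0037, edgeR quasi-likelihood test) and −0.56 ± 0.07 in D538G (adjusted p = 0.00024). KMT2C was at 237.5 and 235.8 CPM in WT, 181.6 and 186.5 CPM in Y537S and 176.5 and 176.7 CPM in D538G control libraries. It was thus lower in both mutants, by −0.35 ± 0.07 on the log2 scale in Y537S (adjusted p = 0.012) and −0.44 ± 0.06 in D538G (adjusted p = 0.00077). KMT2C has partial copies elsewhere in the genome, and how such reads were counted is not given in the sources used here. In RNA from whole cultures, fewer cells expressing a gene and less RNA per cell cannot be told apart.

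MED1 went the other way. It was at 225.1 and 228.2 CPM in WT, 270.1 and 264.2 CPM in Y537S and 263.1 and 289.0 CPM in D538G libraries, a log2 fold change of 0.25 ± 0.07 (adjusted p = 0.035) and 0.27 ± 0.07 (adjusted p = 0.015). Its mutant clones lay above both WT clones. In D538G cells NCOA2 and the corepressor NRIP1 were lower as well. NCOA2 was at 152.8 and 133.7 CPM in WT against 102.2 and 90.6 CPM in D538G clones (log2 fold change −0.59 ± 0.09, adjusted p = 0.0011). NRIP1 was at 91.2 and 76.1 CPM against 56.0 and 57.0 CPM (−0.58 ± 0.10, adjusted p = 0.0016). Neither gene overlapped between the genotypes. In Y537S cells NCOA2, at 107.4 and 123.7 CPM, had a log2 fold change of −0.29 ± 0.11 (adjusted p = 0.075, or 0.047 with a correction for GC content), and NRIP1 differed between the Y537S clones, at 58.0 and 86.7 CPM.

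Against WT, 2 of 9 members were lower in Y537S cells and 1 was higher, where 12.7% of all genes tested were lower and 16.3% higher. In D538G cells 4 members were lower and 1 higher, where 18.5% of all genes were lower and 20.4% higher. NCOA1, NCOR1, EP300 and CREBBP did not pass the test in either mutant, with log2 fold changes between −0.16 and 0.21. Between Y537S and D538G cells 0 of 9 members passed, 1 had an unadjusted p under 0.05, DESeq2 also called 0, and 6.19% of all genes were called. ESR1, the receptor gene itself, was at 116.5 and 115.4 CPM in WT, 256.5 and 167.5 CPM in Y537S and 241.5 and 239.7 CPM in D538G control libraries (log2 fold changes of 0.88 ± 0.17 and 1.04 ± 0.07, adjusted p = 0.0091 and 1.2e-05).

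Leaving out either WT control library ended the calls of KMT2C and MED1 in Y537S (adjusted p of 0.095 to 0.27) and of MED1 in D538G (0.058 and 0.086), with nearly the same log2 fold changes, and the MED1 call in D538G was also lost without clone C2 (adjusted p = 0.066). Without Y537S clone 2 the count in Y537S against WT was 6, and without Y537S clone 1 the count in Y537S against D538G was 2. Clone and genotype cannot be told apart beyond the 2 clones of each.

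**Figure D2:**
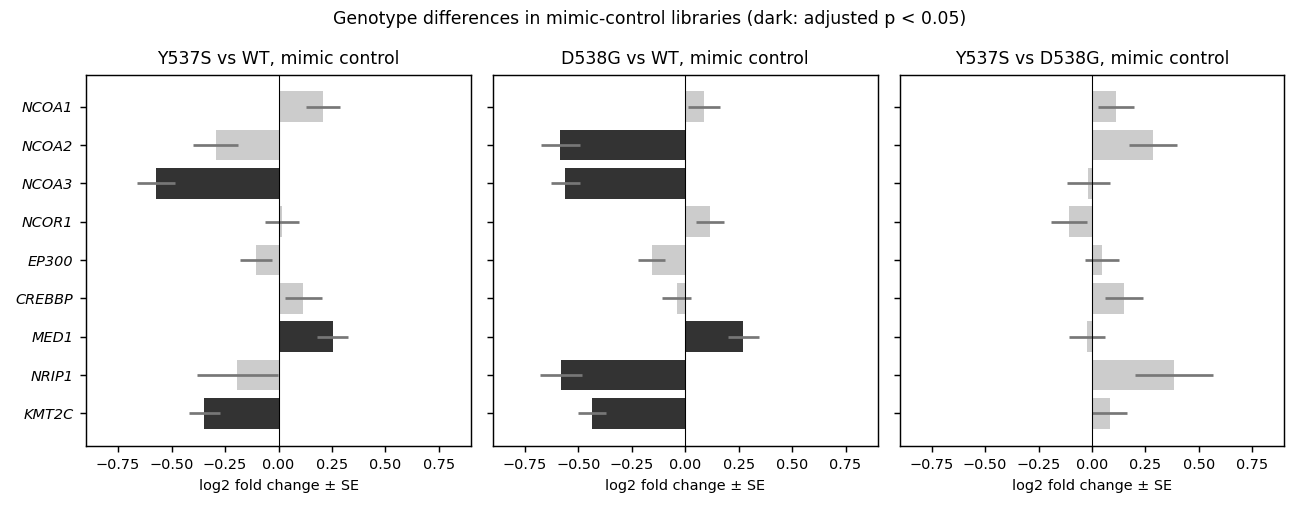
Log2 fold changes of the members between genotypes in mimic-control libraries (bars, with standard errors; dark bars, adjusted p under 0.05). NCOA3 and KMT2C were lower and MED1 higher in both mutants than in WT, while 0 members passed between the mutants.

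The miR-331 mimic gave the largest changes among the members, and all that passed the test were lower. In Y537S cells KMT2C was at 181.6 and 186.5 CPM in control libraries and at 71.6 and 97.8 CPM after miR-331, so the lowest control was well above the highest treated library. The log2 fold change was −1.10 ± 0.16 (n = 2 clones, adjusted p = 0.0088), and the level thus fell by 53.4%. In WT cells KMT2C was at 237.5 and 235.8 CPM in control and at 173.1 and 177.5 CPM in treated libraries. This was a log2 fold change of −0.41 ± 0.06 (adjusted p = 0.00072), with no overlap.

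MED1 fell to a like degree in both genotypes. It was at 270.1 and 264.2 CPM in Y537S controls and 169.1 and 203.5 CPM after miR-331 (log2 fold change −0.50 ± 0.12, adjusted p = 0.026). In WT cells it was at 225.1 and 228.2 CPM before and 161.9 and 166.8 CPM after (−0.44 ± 0.06, adjusted p = 0.00056). The difference of these 2 changes was −0.08 ± 0.12 on the log2 scale (adjusted p = 0.73). The corepressor NCOR1 was at 208.9 and 188.8 CPM in Y537S controls and 148.4 and 160.9 CPM after the mimic. Its log2 fold change was −0.35 ± 0.10 (adjusted p = 0.047). In WT cells NCOR1 went from 196.6 and 200.6 CPM to 161.7 and 160.8 CPM (−0.28 ± 0.06, adjusted p = 0.0058). Treated and control libraries of NCOR1 did not overlap in either genotype.

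EP300 and NCOA1 passed in WT cells. EP300 went from 231.5 and 238.6 CPM to 200.2 and 204.5 CPM (log2 fold change −0.19 ± 0.06, adjusted p = 0.031), and NCOA1 from 81.9 and 80.5 CPM to 66.0 and 69.9 CPM (−0.23 ± 0.06, adjusted p = 0.023). In Y537S cells their values were −0.32 ± 0.11 (adjusted p = 0.079) and −0.24 ± 0.09 (adjusted p = 0.11). NCOA3 was at 213.0 and 242.2 CPM in Y537S controls and 161.9 and 202.7 CPM after miR-331, with both clones lower (−0.30 ± 0.14, adjusted p = 0.16). CREBBP, the close relative of EP300, was at 0.07 ± 0.10 in Y537S and 0.06 ± 0.06 in WT cells, and NCOA2 and NRIP1 also did not pass.

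In all, miR-331 lowered 3 of 9 members in Y537S cells, where 15.8% of all genes tested were lower, and 5 of 9 in WT cells, where 10.6% were lower. Their median log2 fold change was −0.30 in Y537S and −0.19 in WT cells, beside −0.01 and −0.00 over all genes. With the clone as a block, 6 of 9 were lower in each genotype (NCOA1, NCOA3, NCOR1, EP300, MED1 and KMT2C), where 30.2% and 17.2% of all genes were lower. With a correction for GC content added to the block, the calls of NCOA1 (adjusted p = 0.13 in Y537S and 0.28 in WT cells) and NCOA3 (0.13 and 0.37) ended in both genotypes, and the log2 fold change of NCOA3 in WT cells turned to 0.050. The other 4 genes stayed lower in both. None of the members held a miR-331-3p seed match in its 3′UTR.

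The KMT2C response was larger in Y537S than in WT cells. The difference of the log2 fold changes, Y537S minus WT, was −0.71 ± 0.17 (adjusted p = 0.039, interaction term in edgeR), and 1 of 9 members passed where 9.94% of all genes did. Clone by clone the log2 difference in KMT2C was −1.34 and −0.93 in Y537S and −0.46 and −0.41 in WT cells. With the clone as a block the difference was −0.72 ± 0.09 (adjusted p = 8.3e-07), and NCOA3 passed as well (−0.20 ± 0.07, adjusted p = 0.031), 2 of 9 members where 34.1% of all genes were called. When the GC correction was added to the block, KMT2C (−0.76), NCOA3 (−0.17) and EP300 (−0.27) passed with a negative and NRIP1 (0.28, adjusted p = 0.046) with a positive difference. The KMT2C call was lost when any of the 4 WT libraries or either Y537S control library was left out (adjusted p of 0.063 to 0.16), while the difference stayed between −0.68 and −0.75 in these 6 fits.

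Among the single-gene calls after miR-331, KMT2C passed in every fit that left out 1 library. In Y537S cells MED1 was lost without either control library or treated clone 1 (adjusted p of 0.059 to 0.074) and NCOR1 without any of the 4 libraries (0.078 to 0.26). In WT cells EP300 was lost without any of the 4 libraries (0.050 to 0.20), NCOA1 without control D1 or either treated library (0.069 to 0.20) and NCOR1 without treated D1 (0.059). Without the block, the GC correction kept KMT2C in Y537S (−0.99, adjusted p = 0.017), KMT2C in WT (−0.27, adjusted p = 0.014) and MED1 in WT (−0.29, adjusted p = 0.011) and ended the other 5 calls. With both the block and that correction, NCOR1 (−0.24, adjusted p = 0.0021), EP300 (−0.41, adjusted p = 3.1e-06), MED1 (−0.38, adjusted p = 1.0e-05) and KMT2C (−1.0, adjusted p = 1.8e-10) were lower in Y537S cells. In WT cells the same 4 were lower, by −0.13 (adjusted p = 0.0093), −0.14 (0.0026), −0.29 (7.1e-11) and −0.27 (2.3e-09) on the log2 scale. In that fit NRIP1 was higher in Y537S (0.46, adjusted p = 6.5e-06) and WT cells (0.15, adjusted p = 0.029) and NCOA2 higher (0.18, adjusted p = 0.016) and CREBBP lower (−0.15, adjusted p = 0.033) in Y537S cells. NRIP1 has the lowest GC content of the members (38.8%) and CREBBP the highest (55.8%).

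**Figure D3:**
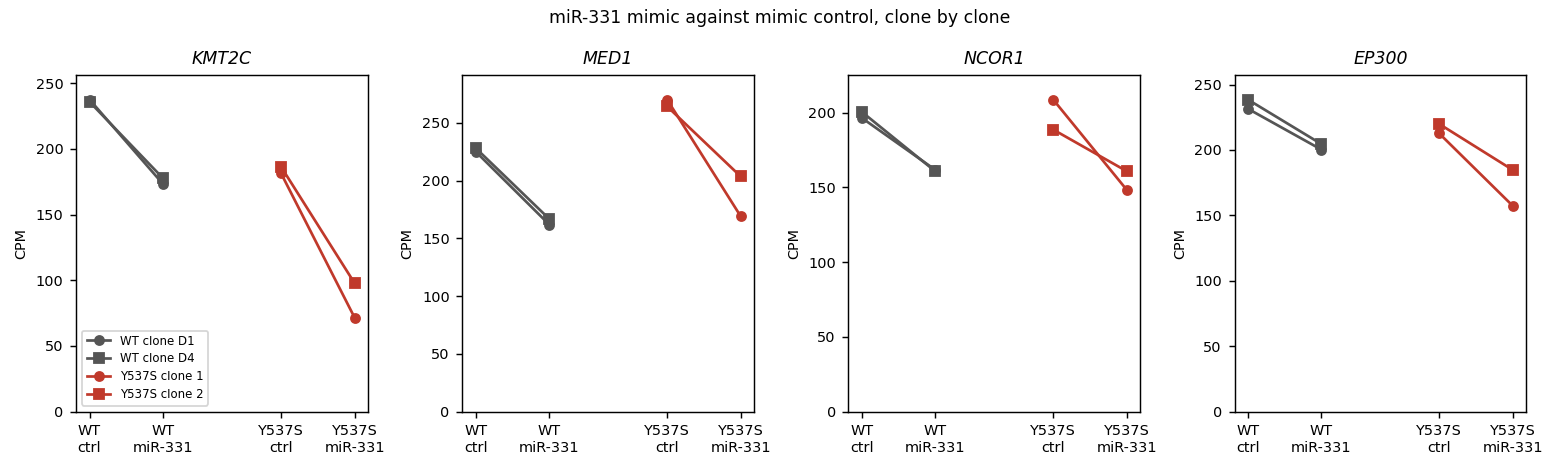
KMT2C, MED1, NCOR1 and EP300 in CPM (linear axes from 0) in the mimic-control and miR-331 libraries, with a line joining the libraries of each clone (grey, WT; red, Y537S). Every line runs downward, and that of KMT2C is steepest in the 2 Y537S clones.

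After the miR-181c mimic KMT2C was again the member with the largest fall. In D538G cells it was at 176.5 and 176.7 CPM in control and 142.1 and 123.7 CPM in treated libraries, a log2 fold change of −0.40 ± 0.08 (n = 2 clones, adjusted p = 0.019). In WT cells it went from 237.5 and 235.8 CPM to 190.9 and 159.6 CPM (−0.45 ± 0.09, adjusted p = 0.0080). The groups did not overlap in either genotype. KMT2C holds the 8-base miR-181c-5p match shown above. NRIP1, which holds none, was at 91.2 and 76.1 CPM in WT controls and 65.9 and 65.8 CPM after miR-181c (−0.36 ± 0.09, adjusted p = 0.028). In D538G cells NRIP1 was at 56.0 and 57.0 CPM before and 57.5 and 53.3 CPM after, with a log2 fold change of −0.02 ± 0.08. The difference between these responses was 0.34 ± 0.13 (adjusted p = 1.0), and 0.00646% of all genes were called in that comparison.

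NCOA2, the other member with an 8-base match, was lower in both clones of both genotypes. It went from 102.2 and 90.6 CPM to 89.0 and 80.0 CPM in D538G (log2 fold change −0.18 ± 0.09, adjusted p = 0.24) and from 152.8 and 133.7 CPM to 126.3 and 108.8 CPM in WT cells (−0.30 ± 0.09, adjusted p = 0.057). With the clone as a block both passed (adjusted p = 0.027 and 0.0013). DESeq2 without the block also called NCOA2 in WT cells (log2 fold change −0.31, adjusted p = 0.015). NCOA3, with its 7-base match, had log2 fold changes of 0.02 ± 0.07 and −0.02 ± 0.07.

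Thus 1 of 9 members was lower after miR-181c in D538G cells, where 3.95% of all genes were, and 2 of 9 in WT cells, where 8.28% were. With the clone as a block these counts were 2 (KMT2C and NCOA2) and 4 (KMT2C, NCOA2, NRIP1 and NCOA1), where 13.6% and 13.4% of all genes were lower. The KMT2C call in D538G was lost without treated clone C2 (adjusted p = 0.13) and that of NRIP1 without control D1 (0.30). With the GC correction only KMT2C in WT cells passed (−0.34, adjusted p = 0.018). With block and GC correction KMT2C passed in both genotypes (−0.29 and −0.34), NCOA2 in neither (−0.04 and −0.16), and MED1 was higher in both (0.14 and 0.20). NCOA3 was higher in D538G cells in that fit (0.17, adjusted p = 0.00071), with a value of 0.13 in WT cells (adjusted p = 0.064).

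The miR-301b mimic changed no member by the test without the block. The counts were 0 of 9 in Y537S, D538G and WT cells, where 3.57%, 11.8% and 8.5% of all genes were called. At an unadjusted p under 0.05 there were 2, 0 and 3 members, and DESeq2 called 0 in each. The log2 fold changes lay between −0.23 and 0.24. ESR1 fell from 116.5 and 115.4 CPM to 72.2 and 70.4 CPM in WT cells (−0.70 ± 0.08, adjusted p = 0.0032) and from 241.5 and 239.7 CPM to 149.9 and 114.6 CPM in D538G cells (−0.87 ± 0.12, adjusted p = 0.0047). In Y537S cells it went from 256.5 and 167.5 CPM to 132.2 and 89.9 CPM, lower in both clones (−0.96 ± 0.25, adjusted p = 0.092), and passed with the clone as a block (−0.95 ± 0.06, adjusted p = 6.7e-34).

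The 3 members with a miR-301b-3p match did not pass without the block. CREBBP was higher in both clones of every genotype, at 236.0 and 207.6 CPM in Y537S controls and 280.3 and 253.0 CPM after miR-301b (log2 fold change 0.24 ± 0.10, adjusted p = 0.21). In D538G cells it went from 203.5 and 202.5 CPM to 222.5 and 232.7 CPM, and in WT cells from 201.2 and 212.5 CPM to 232.7 and 237.8 CPM. NCOA1 went from 95.7 and 89.9 CPM to 80.2 and 82.8 CPM in Y537S cells (−0.21 ± 0.09, adjusted p = 0.21) and from 81.9 and 80.5 CPM to 68.7 and 70.4 CPM in WT cells. In D538G cells the clones of NCOA1 differed by −0.14 and 0.01 on the log2 scale, and the log2 fold change was −0.07 ± 0.09 (adjusted p = 0.66). KMT2C, with the 8-base match, went from 237.5 and 235.8 CPM to 202.4 and 209.8 CPM in WT cells, and had log2 fold changes of −0.08 ± 0.09 in Y537S and −0.09 ± 0.08 in D538G cells.

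With the clone as a block 2, 1 and 4 of 9 members passed in Y537S, D538G and WT cells, where 38.4%, 33.3% and 28.2% of all genes did. These were CREBBP in all 3 genotypes (higher by 0.24, 0.16 and 0.18), NCOA1 in Y537S and WT cells (−0.21 and −0.23), and NCOA2 (−0.18) and KMT2C (−0.20) in WT cells. With the GC correction added to the block, none of these 7 calls was kept (CREBBP 0.11, 0.03 and 0.07). In their place NRIP1 was higher in the 3 genotypes (0.34, 0.40 and 0.29), as was NCOA3 (0.25, 0.29 and 0.12), and NCOA2 was higher in Y537S (0.15). Which members passed after miR-301b thus depended on that correction. The responses of the members did not pass a test of the difference between Y537S and WT or between D538G and WT cells (0 of 9 in each, 0 with an unadjusted p under 0.05, 0 by DESeq2). Of all genes 0.00632% and 0.0064% passed these tests.

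**Figure D4:**
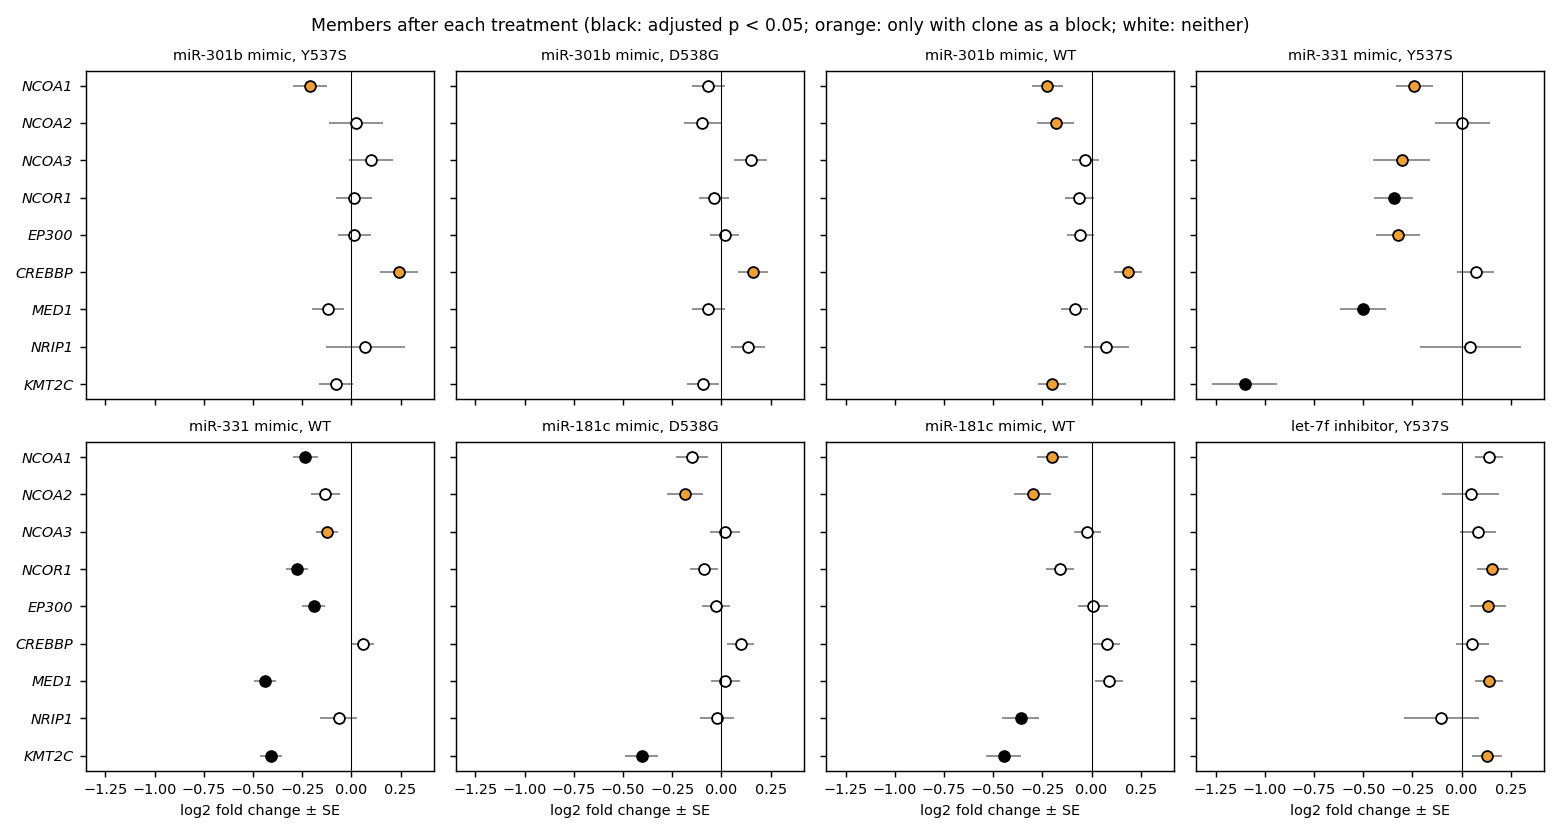
Log2 fold changes of the 9 members, with standard errors, in each of the 8 treatment comparisons (black, adjusted p under 0.05; orange, only with the clone as a block; white, neither). All black points, for miR-331 and miR-181c, lie to the left of 0, and 0 members are black after miR-301b or the let-7f inhibitor.

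After the let-7f inhibitor 0 of 9 members passed, 0 had an unadjusted p under 0.05, DESeq2 called 0, and 0% of all genes were called. KMT2C was at 154.9 and 164.0 CPM with the inhibitor control and 173.1 and 174.4 CPM with the inhibitor. MED1 was at 224.9 and 234.6 CPM before and 249.5 and 254.9 CPM after, and NCOR1 at 169.9 and 176.4 CPM before and 198.3 and 186.4 CPM after. With the clone as a block 4 of 9 members were higher, where 4.31% of all genes were. They were NCOR1 (log2 fold change 0.16 ± 0.04), EP300 (0.14 ± 0.04), MED1 (0.14 ± 0.03) and KMT2C (0.13 ± 0.04). The adjusted p-values were 0.011 to 0.044. NCOR1 (0.14) and MED1 (0.12) still passed with the GC correction added to the block, and the calls of EP300 (0.09, adjusted p = 0.11) and KMT2C (0.11, adjusted p = 0.052) ended. NCOA1 and NCOA3, the members with a let-7f-5p match, had log2 fold changes of 0.14 ± 0.07 and 0.08 ± 0.09 and did not pass in either fit.

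These 4 genes also differed between the 2 negative controls of Y537S cells in the blocked fit. Against the mimic control, the inhibitor control was lower for NCOR1 (−0.21), EP300 (−0.14), MED1 (−0.23), KMT2C (−0.22) and NCOA1 (−0.18) and higher for NRIP1 (0.30), 6 of 9 members where 16.7% of all genes were called. After adding the GC correction, NCOA1 was lost (adjusted p = 0.098) and CREBBP passed (−0.13, adjusted p = 0.014). Without the block 0 members and 0% of all genes passed (2 members with an unadjusted p under 0.05, 0 by DESeq2). The comparison of the inhibitor with its control and that of the 2 controls share the inhibitor control libraries. KMT2C, for example, was at 173.1 and 174.4 CPM with the let-7f inhibitor and at 181.6 and 186.5 CPM with the mimic control.

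Across the 8 treatment comparisons KMT2C was lower in both clones in 7 and higher in 1, and was called lower in 4. NCOA1 and NCOR1 were each lower in both clones in 6 comparisons. CREBBP was the only member with no comparison in which both clones were lower, and it was higher in both clones in 7 of 8, although none passed without the block. With the GC correction CREBBP turned to log2 fold changes of −0.15 (Y537S) and −0.05 (WT) after miR-331 and −0.05 (WT) after miR-181c, and was at −0.00 after miR-181c in D538G cells and after the let-7f inhibitor. The mimic comparisons of a genotype share their control libraries, so these tallies are not of independent comparisons. How many of all genes moved alike in both clones was not counted, so the tallies cannot be set against such a share.

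The other genes of these complexes were taken from 5 lists of 98 genes, all of which were tested. After miR-331 in Y537S cells 17 were higher and 10 lower, 17.3% and 10.2% of the list beside 17.2% and 15.8% of all genes. In WT cells 21 were higher and 17 lower, 21.4% and 17.3% beside 14.2% and 10.6%. With the GC correction the split turned to 10 higher and 13 lower in Y537S and 7 higher and 10 lower in WT cells. The shares of all genes with that correction are not given here, so no list count with it can be set against them. The Mediator list, of 31 genes, had 6 higher and 3 lower in Y537S and 6 higher and 2 lower in WT cells, with medians of 0.21 and 0.10 beside −0.01 and −0.00 over all genes. The share of the list that was higher, 19.4% in each genotype, was close to that of all genes in Y537S (17.2%) and WT cells (14.2%). After GC correction the list had 5 higher and 2 lower in Y537S and 4 higher and 1 lower in WT cells. The largest Mediator changes in Y537S cells were a fall of MED23 (log2 fold change −2.52 ± 0.25, adjusted p = 0.0062) and a rise of MED16 (1.06 ± 0.14, adjusted p = 0.0077). In WT cells they were MED20 (−0.67 ± 0.11) and MED16 (0.58 ± 0.08).

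In the MLL3/MLL4 complex, in which KMT2C and its paralog KMT2D are the catalytic subunits, 2 of 8 genes fell and 1 rose in Y537S cells after miR-331. These were 25% and 12.5% of the list, where 15.8% of all genes were lower and 17.2% higher. KMT2D fell by 0.79 ± 0.15 on the log2 scale (adjusted p = 0.015) and PAXIP1 by 0.56 ± 0.13 (adjusted p = 0.023). In WT cells 1 rose (PAGR1, 0.23 ± 0.08) and 0 fell, where 14.2% of all genes were higher and 10.6% lower. Of the 24 genes of corepressor complexes LCOR, a ligand-dependent corepressor of nuclear receptors, fell after all 7 mimic treatments. Its log2 fold change was −1.35 ± 0.13 in Y537S (adjusted p = 0.0062) and −0.57 ± 0.08 in WT cells (adjusted p = 0.00093) after miR-331, and −0.60 ± 0.10 in D538G and −0.94 ± 0.09 in WT cells after miR-181c. After miR-301b it was −1.10 ± 0.09 in Y537S, −0.89 ± 0.11 in D538G and −0.78 ± 0.13 in WT cells. With the GC correction the miR-181c call of LCOR in D538G cells was lost (adjusted p = 0.075). The mimic treatments of a genotype share their control libraries, so the 7 falls of LCOR are not independent. Of the other coactivators DDX17 fell (−0.73 ± 0.08) and SRA1 rose (0.72 ± 0.11) in Y537S cells, and of the SWI/SNF remodelling complex ARID1A fell (−0.94 ± 0.11) and SMARCD2 rose (0.66 ± 0.13).

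After miR-181c 5 of the 98 genes were higher and 8 lower in D538G cells and 10 higher and 7 lower in WT cells (6 and 6 with the GC correction). Higher genes were thus 5.1% and 10.2% of the list, beside 5.58% and 8.1% of all genes, and lower genes 8.16% and 7.14%, beside 3.95% and 8.28%. The acetyltransferase KAT2B fell in both (−0.70 ± 0.13, adjusted p = 0.014, and −0.99 ± 0.10, adjusted p = 0.00029), as did the methyltransferase CARM1 (−0.36 ± 0.09 and −0.42 ± 0.08) and the histone-binding RBBP7 (−0.68 ± 0.07 and −0.85 ± 0.07). The paralogous Mediator kinases moved apart, CDK8 falling (−0.67 ± 0.14 and −0.54 ± 0.16) and CDK19 rising (0.84 ± 0.13 and 0.74 ± 0.12). KMT2D, which fell after miR-331 in Y537S cells, rose after miR-181c in WT cells (0.23 ± 0.06, adjusted p = 0.034). After miR-301b 3, 4 and 6 of the 98 genes passed in Y537S, D538G and WT cells, or 3.06%, 4.08% and 6.12% of the list, below the 3.57%, 11.8% and 8.5% of all genes. Among them was TBL1XR1, a subunit of the NCOR1 complex, in Y537S (−0.77 ± 0.09) and D538G (−0.46 ± 0.12). After the let-7f inhibitor 0 of 98 passed, with 5 at an unadjusted p under 0.05 and 0 by DESeq2.

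Between genotypes 21 of the 98 genes were higher and 6 lower in Y537S than in WT control cells, and 28 higher and 14 lower in D538G. These were 21.4% and 6.12% of the list in Y537S, beside 16.3% and 12.7% of all genes, and 28.6% and 14.3% in D538G, beside 20.4% and 18.5%. Their median log2 fold changes were 0.10 and 0.08, beside −0.00 over all genes in each. In the corepressor list 9 of 24 were higher and 2 lower in Y537S cells, led by TBL1X (0.91 ± 0.10, adjusted p = 0.00094) and SIN3A (0.80 ± 0.09, adjusted p = 0.00093). In D538G cells 11 were higher and 5 lower, led by CTBP2 (0.69 ± 0.08) and SIN3A (0.65 ± 0.08). The coactivator PPARGC1B was higher in both mutants (1.12 ± 0.21 and 0.85 ± 0.17), and MED23 was lower in both (−1.13 ± 0.19 and −0.70 ± 0.12). In the MLL3/MLL4 complex WDR5 was higher in both (0.86 ± 0.12 and 0.70 ± 0.10), KDM6A was lower in Y537S (−0.46 ± 0.08) and KMT2D lower in D538G (−0.67 ± 0.06).

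**Figure D5:**
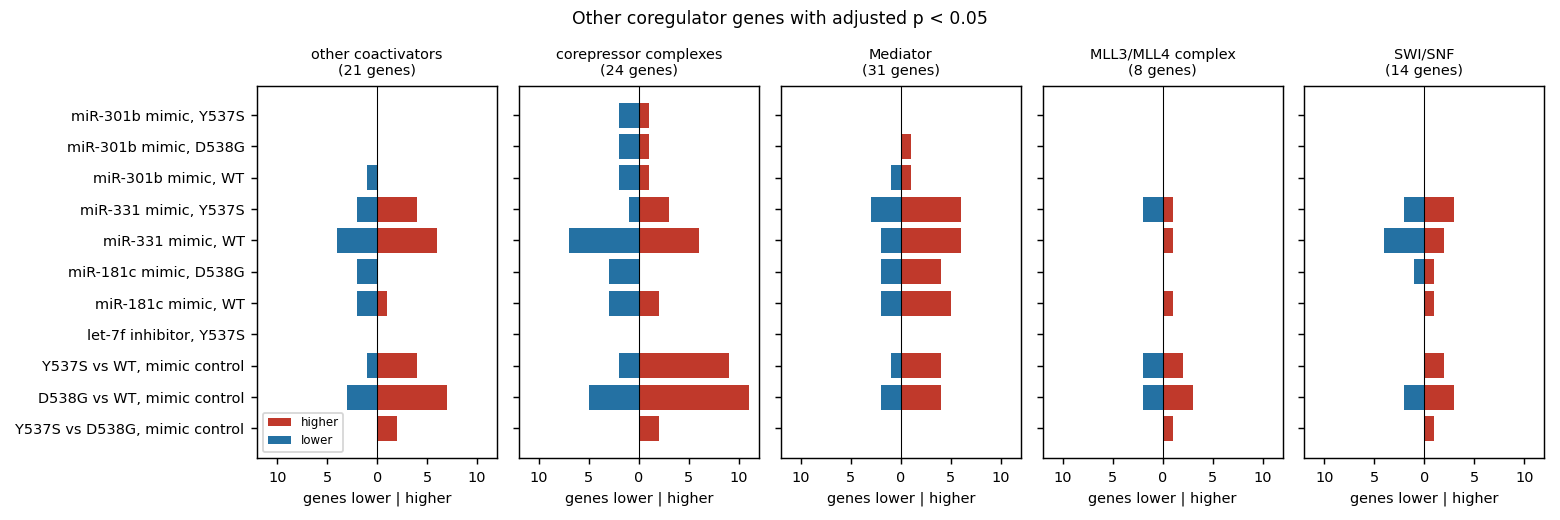
Number of genes of 5 coregulator lists that were higher (red, to the right) or lower (blue, to the left) at an adjusted p under 0.05 in the treatment and genotype comparisons. Corepressor genes in D538G against WT gave the largest count, with 11 higher and 5 lower, and 0 genes passed after the let-7f inhibitor.

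The members did not vary as 1 block across the libraries. Over the 36 pairs of members the Pearson correlation of log2 CPM over the 24 libraries had a median of 0.11 and ran from −0.53, for NCOA1 and NCOA3, to 0.86, for EP300 and KMT2C. Among the 10064 genes that averaged 3 log2 CPM or more, NCOA3 was most like CALCOCO1 (r = 0.98, Spearman's rho 0.96), itself a nuclear receptor coactivator, and TAGLN (r = 0.97). KMT2C was most like ZNF37BP (r = 0.97) and NBEAL1 (r = 0.96), MED1 like WDR55 (r = 0.94) and ABL2 (r = 0.93), and EP300 like SETD5 (r = 0.92) and SHPRH (r = 0.91). For NCOR1 the closest were NCOA6 (r = 0.88) and ZBED6 (r = 0.88), for NCOA2 PCDHGA1 (r = 0.95) and SUSD6 (r = 0.92), for NCOA1 PUS7 (r = 0.91) and CEBPZ (r = 0.91), for CREBBP ZC3H4 (r = 0.90) and SLC16A13 (r = 0.87), and for NRIP1 SKAP2 (r = 0.86) and FRMD6 (r = 0.83). The 24 libraries share clones, genotypes and treatments, so these values describe them and carry no test.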

How the data were processed

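Poly-A RNA-seq libraries were made with a stranded kit from 24 cultures of T-47D cells. According to the labels and the methods of the study, the authors used HISAT2 to align the reads to hg19 and featureCounts of Subread to count them per gene of UCSC Known Genes, and the deposited values are raw counts, not normalized. Versions, the strand setting and the handling of reads that map to several places are not given in the sources used here. KMT2C and NCOR1 have partial copies elsewhere in the genome and some members overlap antisense genes, so their counts could share reads with these.

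The 9 members and the lists were chosen with earlier results of these data known. Columns of the Y537S table name clones 1 and 2, those of the D538G and WT tables A5, C2, D1 and D4. These could not be joined to the label numbers and were assigned to conditions only. Some labels transpose the digits of Y537S. Each comparison was fitted on its own libraries and all genes with edgeR 4.0.16 in R 4.3.3 (TMM, filterByExpr, quasi-likelihood F test, two-sided). P-values were adjusted by Benjamini-Hochberg over all genes tested and called under 0.05. Standard errors are the size of the log2 fold change over the square root of F. With 2 clones against 2 an exact permutation test could not go below 0.333. A statement that libraries did not overlap thus describes the values and is not a test. The share of all genes without overlap was not counted. CPM used TMM factors over 24 libraries, and log2 CPM a prior count of 2. These factors were 0.896 and 0.928 in the miR-331 libraries of Y537S cells and 0.993 to 1.036 in the other libraries. The changes after miR-331 in Y537S cells depend on such scaling. The alternatives were DESeq2 1.42.0, RLE size factors, no filter, a single fit of all libraries, a GC correction (lowess, span 0.3), a block for the clone, both of these together, and leaving out each library.

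The squared difference between the 2 libraries of a condition, scaled by the expected count and averaged over genes, was 11.2 to 48.3 times that of counting noise. Libraries of the same clone are the same cell line and so form pairs. The main fit took the clones as biological duplicates and did not use the pairs. Among the fits, only those with the block for the clone did. The clone difference in treated and control libraries correlated at 0.43 to 0.81 over 10064 genes. Sequence, GC content and lengths came from GENCODE v44 lifted to hg19, with 20651 genes matched by symbol and 1373 by an older symbol, and this is not the annotation used for counting. The miRNA sequences came from RefSeq (GRCh38.p14 tables). Named genes were the members, ESR1, the 2 called genes with the largest change per list and comparison (mean of at least 3 log2 CPM), and the 2 genes most alike to each member. The fits were run on simulated data with known changes. The fit without the block was run only on data simulated with no clone effect. Its behaviour where clones differ was thus not tested. Python 3.11.15, pandas 2.3.3, numpy 2.4.6 and matplotlib were used for tables and plots.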

Additional observations from a re-analysis of the deposited data

Results flagged for a closer look

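The response of KMT2C to the miR-331 mimic differed between genotypes. The difference of the log2 fold changes, Y537S minus WT, was −0.71 ± 0.17 (adjusted p = 0.039 by the interaction term in edgeR), with KMT2C lower in both clones of both genotypes. In that comparison 1 of 9 members and 9.94% of all genes were called. When 1 library was left out the difference lay between −0.96 and −0.52, and the call was lost in most of these fits. No condition had enough libraries to test for a single library far from the others.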

How the results depend on the processing

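The clones pair the libraries, and the replicate block for the clone changed the most counts of members called. With it the counts rose from 0 to 2, 1 and 4 after miR-301b in Y537S, D538G and WT cells, from 3 to 6 after miR-331 in Y537S, from 1 to 2 and from 2 to 4 after miR-181c in D538G and WT, from 0 to 4 after the let-7f inhibitor, from 0 to 6 between the 2 negative controls, and from 1 to 2 for the miR-331 response. It lost none of the 12 calls made without it. With the replicate block and the GC correction, the counts were 3, 2 and 2 after miR-301b, 7 after miR-331 in Y537S, 3 after miR-181c in D538G, 2 after the let-7f inhibitor, 6 between the negative controls and 4 for the miR-331 response. With the GC correction alone the count rose from 3 to 4 in Y537S against WT (NCOA2 added), and the counts fell to 1 and 2 after miR-331 in Y537S and WT and to 0 and 1 after miR-181c in D538G and WT. NCOA3 after miR-331 in WT cells turned from −0.12 to 0.050 in both GC-corrected fits. With all 24 libraries in 1 fit the counts were 1 after miR-301b in Y537S, 6 after miR-331 in Y537S and 1 after miR-181c in WT. Leaving out 1 library gave 1 to 2 and 2 to 5 members after miR-331 in Y537S and WT, 0 to 1 and 1 to 3 after miR-181c in D538G and WT, 1 to 6 for Y537S against WT, 0 to 2 for Y537S against D538G and 0 to 1 for the miR-331 response. The 6 members called in Y537S against WT were without clone 2 of Y537S, and the 2 against D538G without clone 1. All 20 calls of single members without the block were kept by DESeq2, which also called NCOA2 after miR-181c in WT cells. With RLE size factors or with no filter 19 of 20 were kept (NCOR1 after miR-331 in Y537S was lost). The shares of all genes called are given above only for the fits with and without the block. The counts of the other fits therefore cannot be set against such a share. The cause of these changes in counts was not tested. Clones cannot be paired between genotypes, so the genotype comparisons have no blocked value. With at least 31379962 counts a library, the squared difference between clones was 11.2 to 48.3 times that of counting noise.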
